A study of Rattus norvegicus with 72 samples.

Results

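The collagen genes are those that encode the alpha chains of collagens, proteins in which such chains wind around each other into a triple helix. Every gene of the deposited count tables whose symbol is Col, a number, the letter a and a number was taken, which gave 44 of 32545 genes, with 43 symbols because Col23a1 stands for 2 Ensembl entries (ENSRNOG00000003349 and ENSRNOG00000046785). They were sorted by the kind of collagen they build: 11 fibrillar chains, 7 basement membrane chains (types IV, XV and XVIII), 6 type VI chains, 9 FACIT chains (collagens that sit on the surface of fibrils), 5 transmembrane entries and 6 other chains. The chains Col4a3 and Col21a1 are not analysed here under their own symbols.

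RNA had been sequenced from adult male Sprague-Dawley rats on normal chow that had lost the right kidney (nephrectomy) or had had only its pedicle dissected (sham surgery), 24, 48 or 72 h before. Material came from glomeruli (the capillary tufts that filter blood), from S1 segments (the first stretch of the proximal tubule), both microdissected, and from whole left kidney, in 18 groups of 4 libraries each, 72 in all. The labels name no allele or drug in any group. Whether the libraries of a group stem from different rats is not stated in the labels, and a p-value then reflects only how much these libraries vary, which can be technical. Segment RNA was amplified and read from 1 end, while whole kidney RNA went into stranded libraries read from both ends, so levels of segments and whole kidney are set side by side and were not tested against each other.

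Collagens are the main structural proteins of the extracellular matrix. Fibrillar collagens (types I, II, III, V, XI, XXIV and XXVII) assemble into the tensile fibres of connective tissue, and in the kidney they belong mostly to the interstitium, the vessel walls and, in disease, to scar. Type IV collagen forms the sheet-like network of basement membranes: the alpha1 and alpha2 chains are found in nearly every basement membrane, whereas the alpha3, alpha4 and alpha5 chains make the mature network of the glomerular filter, whose loss causes Alport syndrome. After a kidney is lost, the remaining one enlarges, and glomeruli and tubules grow within their basement membranes.

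The 2 dissected sham libraries numbered 2 at 24 h, labelled glomeruli and S1 tubules, went against their labels and were left out of the results unless stated. In the library labelled S1 tubules, Col4a1 stood at 131 reads per kilobase per 1e+06 reads (RPKM), against 11.96 to 37.1 in the other S1 sham libraries, and Col12a1 at 41.8 against 0.222 to 2.10. In the library labelled glomeruli, Col4a1 stood at 21.8 RPKM against 95.0 to 246, and Col12a1 at 0.265 against 27.0 to 95.0. The remaining 70 libraries held 2.64 to 37.4 M gene counts each in glomeruli, while S1 tubules had 7.88 to 87.4 M and whole kidney 10.1 to 55.5 M (M is 1e+06 counts). Collagen genes took 0.375 to 0.622% of them in glomeruli, 0.0802 to 0.164% in the S1 segments and 0.110 to 0.560% in the whole organ.

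The promoters of Col4a1 and Col4a2 are shown because these chains, which pair in the ubiquitous type IV collagen, are transcribed away from each other and are followed together below. In RefSeq on build GRCr8 their starts lie 77 bases apart on chromosome 16, at 84885597 on the plus strand for Col4a1 and at 84885520 on the minus strand for Col4a2. Each window runs from 250 bases before the start to 50 after it, read 5′ to 3′ along its gene, so the windows share 176 bases on opposite strands. Col4a1 lies at chr16:84885347-84885646 and Col4a2 at chr16:84885471-84885770. Capitals mark GC boxes (GGGCGG, or CCGCCC on the other strand) and CCAAT boxes (CCAAT, or ATTGG on the other strand).
Col4a1: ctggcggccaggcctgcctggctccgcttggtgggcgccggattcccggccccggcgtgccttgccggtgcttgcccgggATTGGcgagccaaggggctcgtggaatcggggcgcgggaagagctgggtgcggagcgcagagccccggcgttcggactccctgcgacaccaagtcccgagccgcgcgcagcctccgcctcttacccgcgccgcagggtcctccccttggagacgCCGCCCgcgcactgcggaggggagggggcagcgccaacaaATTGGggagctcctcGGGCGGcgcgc
Col4a2: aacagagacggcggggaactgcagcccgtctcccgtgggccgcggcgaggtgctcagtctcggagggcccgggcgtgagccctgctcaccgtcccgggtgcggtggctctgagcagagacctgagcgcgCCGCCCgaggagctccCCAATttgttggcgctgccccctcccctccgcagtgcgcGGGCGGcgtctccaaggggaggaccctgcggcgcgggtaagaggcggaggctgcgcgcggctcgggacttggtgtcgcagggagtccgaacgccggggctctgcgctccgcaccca

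The Col4a1 window held 2 GC boxes and 2 CCAAT boxes at 75.0% G and C, and the Col4a2 window 2 GC boxes and 1 CCAAT box at 73.7%. Both GC boxes and the Col4a2 CCAAT box lie in the shared stretch, so they are the same sites read from either side. Among 33469 RefSeq promoters of this length, 33.1% held a GC box and 37.5% a CCAAT box on either strand, and the median content of G and C was 51.7%. A TATAAA sequence was in neither window and in 14.2% of all promoters. The windows of Col5a1 (1 GC box), Col7a1 (1) and Col18a1 (3) held no CCAAT box and no TATAAA. Col4a5 and Col4a6, the other head-to-head pair of type IV genes, start 1415 bases apart on the X chromosome, so their windows share no base.

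In kidneys after sham surgery, basement membrane chains made up most collagen transcript in every kind of sample. Their share of the summed collagen RPKM was 78.8% ± 3.14 in glomeruli (SD, n = 11 libraries), 93.5% ± 2.52 in S1 tubules (n = 11) and 58.5% ± 4.44 of the summed fragments per kilobase per 1e+06 fragments (FPKM) in whole kidney (n = 12). Fibrillar chains made up 8.82% ± 2.96, 2.30% ± 0.782 and 23.9% ± 2.38 in the same order. Type VI chains, which form beaded filaments beside cells, took 2.07%, 1.99% and 10.3%. FACIT chains took 6.81%, 1.36% and 6.00%. In whole kidney the basement membrane chains held most of the sum only with Col4a4, whose share alone was 24.7%. In bulk samples such as these, fewer cells of a type and less RNA per cell cannot be told apart.

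**Figure D1:**
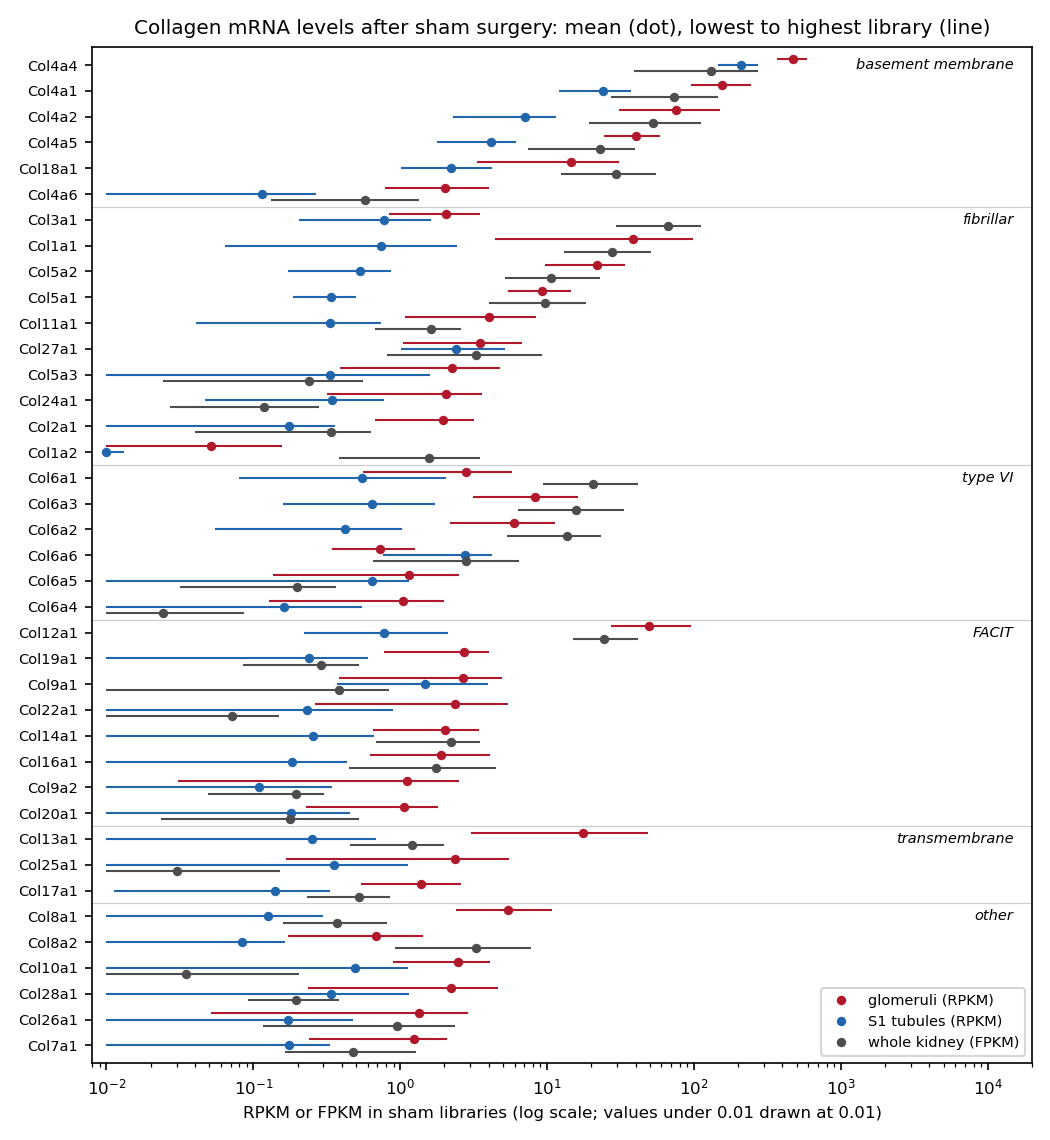
Level of collagen genes after sham surgery on a log axis (RPKM for glomeruli and S1 tubules, FPKM for whole kidney), for the members with a mean of at least 1 in some tissue. Each dot is the mean and each line runs from the lowest to the highest of 11 glomerulus, 11 S1 and 12 whole kidney libraries, with values under 0.01 drawn at 0.01. Col4a4 stands highest in all 3 tissues (473, 209 and 131), and Col3a1 is high in whole kidney (66.3) and low in both segments (2.05 and 0.773).

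Col4a4, the alpha4 chain of the mature filter network, was the highest collagen gene per length in all 3 kinds of sample. It was listed at 365 to 592 RPKM in glomeruli (median 470), at 145 to 271 in S1 tubules (median 206) and at 39.2 to 271 FPKM in whole kidney (median 126). It alone made up 49.7% ± 8.25 of the summed collagen RPKM of glomeruli, 79.4% ± 4.57 of that of S1 tubules and 24.7% ± 3.46 of the FPKM sum of whole kidney. Its glomerulus and S1 ranges did not overlap on the RPKM scale. The segment libraries do not keep strand, so a transcript antisense to Col4a4 would be counted with it there, and how strand was used in counting the whole kidney reads is not stated.

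The other type IV chains followed the order glomeruli, whole kidney, S1 tubules. Col4a1 was listed at 95.0 to 246 RPKM in glomeruli (median 124.5), at 11.96 to 37.1 in S1 tubules (median 22.5) and at 27.4 to 145 FPKM in whole kidney (median 69.5). Col4a2, its partner, had means of 75.2 ± 42.7 RPKM in glomeruli, 7.03 ± 2.81 in S1 tubules and 52.8 ± 26.4 FPKM in whole kidney. For both chains every glomerulus library stood above every S1 library. Col4a5, the X-linked chain of the filter network, had means of 40.1 ± 9.39 RPKM, 4.15 ± 1.34 RPKM and 23 ± 9.37 FPKM. Col4a6, found with it in the basement membrane of Bowman's capsule and smooth muscle, was low, at 2.00 ± 0.943 RPKM, 0.114 RPKM and 0.574 FPKM. In glomeruli that is under the level of 2.06 RPKM that is the ninetieth percentile of olfactory receptor genes, a background described below.

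Col18a1 and Col15a1 encode basement membrane collagens whose C-terminal parts are released as endostatin and its relative. Col18a1 was highest in whole kidney, with 12.3 to 55.2 FPKM and a median of 29.9, against 3.34 to 30.9 RPKM in glomeruli (median 11.03) and 1.01 to 4.22 in S1 tubules (median 2.27). The glomerulus values spread over most of the whole kidney range, and those units were not tested against each other. Col15a1 was listed at 0 in all 11 glomerulus libraries and in 10 of 11 S1 libraries, and at 0.130 ± 0.0880 FPKM in whole kidney. A separate entry described as alpha1(XV)-like (LOC100909752) had 0.265 ± 0.177 FPKM in whole kidney. An entry described as alpha3(IV)-like (LOC100911572, ENSRNOG00000015365) had 33.8 ± 17.1 RPKM in glomeruli, 5.09 ± 2.57 in S1 tubules and 24.3 ± 12.9 FPKM in whole kidney. Neither is counted among the 44 genes, and reads of near-identical copies can be split between entries.

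The main fibrillar chains were high in different samples. Col3a1, the single chain of type III collagen in stretchy connective tissue, was the third highest collagen in whole kidney, with 29.3 to 111 FPKM (median 68.4), and stood at 0.837 to 3.49 RPKM in glomeruli (median 1.91) and 0.205 to 1.63 in S1 tubules (median 0.742). Its glomerulus mean of 2.05 RPKM lies at the olfactory receptor level of 2.06. Col1a1, the main chain of type I collagen, was spread widely in glomeruli, from 4.44 to 98.8 RPKM (median 30.5), and stood at 13.1 to 50.8 FPKM in whole kidney (median 26.2) and 0.0642 to 2.45 RPKM in S1 tubules (median 0.582). So the glomerulus and S1 ranges of Col1a1 did not overlap, while those of Col3a1 did.

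Col1a2, the second chain of type I collagen, was far below Col1a1 in every tissue. It had means of 0.0519 RPKM in glomeruli (at 0 in 3 of 11 libraries), 0.00285 in S1 tubules (at 0 in 8 of 11) and 1.58 ± 1.09 FPKM in whole kidney. In whole kidney the log2 ratio of Col1a1 to Col1a2 per length was 4.36 ± 0.64 after sham surgery (n = 12) and 4.03 ± 0.57 after nephrectomy (n = 12). Both chains are needed for the common form of type I collagen. Why Col1a2 was listed so far below Col1a1 was not tested.

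Type V collagen, a fibrillar collagen that sets fibril width, was higher per length in glomeruli than in S1 tubules. Col5a2 was listed at 9.73 to 34.1 RPKM in glomeruli (median 21.2), 0.172 to 0.863 in S1 tubules (median 0.573) and 5.20 to 22.99 FPKM in whole kidney (median 9.58). Col5a1 was listed at 5.41 to 14.4 RPKM (median 9.14), 0.187 to 0.503 (median 0.321) and 3.99 to 18.4 FPKM (median 9.16). No S1 library reached the lowest glomerulus library for either chain. The log2 ratio of Col5a1 to Col5a2 was -1.23 ± 0.26 in sham glomeruli and -0.16 ± 0.26 in sham whole kidney. The cartilage chains Col2a1 (1.95, 0.174 and 0.339) and Col11a1 (4.02, 0.332 and 1.61), Col24a1 (2.04, 0.344 and 0.118) and Col27a1 (3.51, 2.39 and 3.26) were low in glomeruli, S1 tubules and whole kidney, as RPKM, RPKM and FPKM.

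The 3 classical type VI chains were highest in whole kidney. Col6a1, Col6a2 and Col6a3, which make up 1 molecule, had means of 20.6 ± 8.31, 13.6 ± 5.17 and 15.7 ± 7.20 FPKM there, of 2.81 ± 1.33, 5.94 ± 2.87 and 8.24 ± 3.90 RPKM in glomeruli, and of 0.551, 0.421 and 0.647 RPKM in S1 tubules. Col6a4 and Col6a5 had higher RPKM means in glomeruli (1.04 ± 0.647 and 1.15 ± 0.713) than in S1 tubules (0.162 and 0.638), and were lowest in whole kidney (0.0244 and 0.197 FPKM). Both glomerulus means lie under the olfactory receptor level of 2.06 RPKM. In the scaled test described below, the log2 difference of Col6a5 was negative in glomeruli (-0.96 ± 0.40). Col6a6, a later discovered chain that can stand in for the third, had the opposite order between segments on the RPKM scale. It was listed at 0.763 to 4.20 RPKM in S1 tubules (median 2.68) and at 0.343 to 1.25 in glomeruli (median 0.688), and it was the fifth collagen of S1 tubules by mean level.

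Of the remaining classes, few members reached the level of the type IV chains. Col12a1, a FACIT chain of dense connective tissue, was the fourth collagen of glomeruli, with 27.1 to 95.0 RPKM (median 39.8), against 0.222 to 2.10 in S1 tubules (median 0.422) and 15.0 to 41.3 FPKM in whole kidney (median 24.3). Col13a1, a transmembrane collagen of cell junctions, ran from 3.05 to 48.8 RPKM in glomeruli (median 9.14) and from 0 to 0.688 in S1 tubules. The short chains of type VIII, a network collagen of vessels and corneal endothelium, differed in which of them led. The log2 ratio of Col8a1 to Col8a2 per length was 3.02 ± 0.92 in sham glomeruli and -3.06 ± 0.76 in sham whole kidney, with lowest and highest libraries of 1.84 and 5.27 against -4.89 and -2.10. The glomerulus mean of Col8a2 was 0.689 RPKM, under the olfactory receptor level of 2.06, so the size of the glomerulus ratio is uncertain. The genes whose levels or ratios are not given so far had means of at most 2.72 RPKM in glomeruli (Col19a1), 1.47 in S1 tubules (Col9a1) and 2.21 FPKM in whole kidney (Col14a1). The 2 entries of Col23a1 were the lowest of them in both segments.

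The lowest levels in the amplified segment libraries need a floor. The 1068 olfactory receptor genes (symbols Olr and a number), which mostly work in the nose although a few are known in kidney, had a mean level of 1.03 RPKM in sham glomeruli, 0.133 in sham S1 tubules and 0.0142 FPKM in sham whole kidney. Their ninetieth percentile was 2.06 RPKM in glomeruli and 0.277 in S1 tubules, and 23 of 44 collagen genes had means above it in each segment. In glomeruli those were 6 of 11 fibrillar, 5 of 7 basement membrane, 3 of 6 type VI and 4 of 9 FACIT chains. In whole kidney the percentile was 0 and all 44 were above it. This comparison was chosen after the data were seen, and the remaining 21 chains of each segment had means at or under that percentile.

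Glomeruli and S1 tubules were made with the same kit and were tested against each other after sham surgery. Of 44 collagen genes 40 had enough counts for the test, all but Col1a2, Col15a1 and the 2 entries of Col23a1. Of these, 25 were higher and 5 were lower in glomeruli at an adjusted p under 0.05 (edgeR). That test did not pair same-numbered libraries, and with the number as a block 30 were higher and 4 lower. The background is large: 50.3% of all 22313 genes tested were called, 28.1% higher and 22.2% lower. The median log2 difference of the collagen genes was 1.35, against 0.62 for all genes and 1.34 for 806 olfactory receptor genes, so the collagen median is that of the background genes. The labels of the segments themselves held: 8 of 8 podocyte markers were higher in glomeruli (median 7.31) and 8 of 8 proximal tubule markers were lower (median -7.70).

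**Figure D2:**
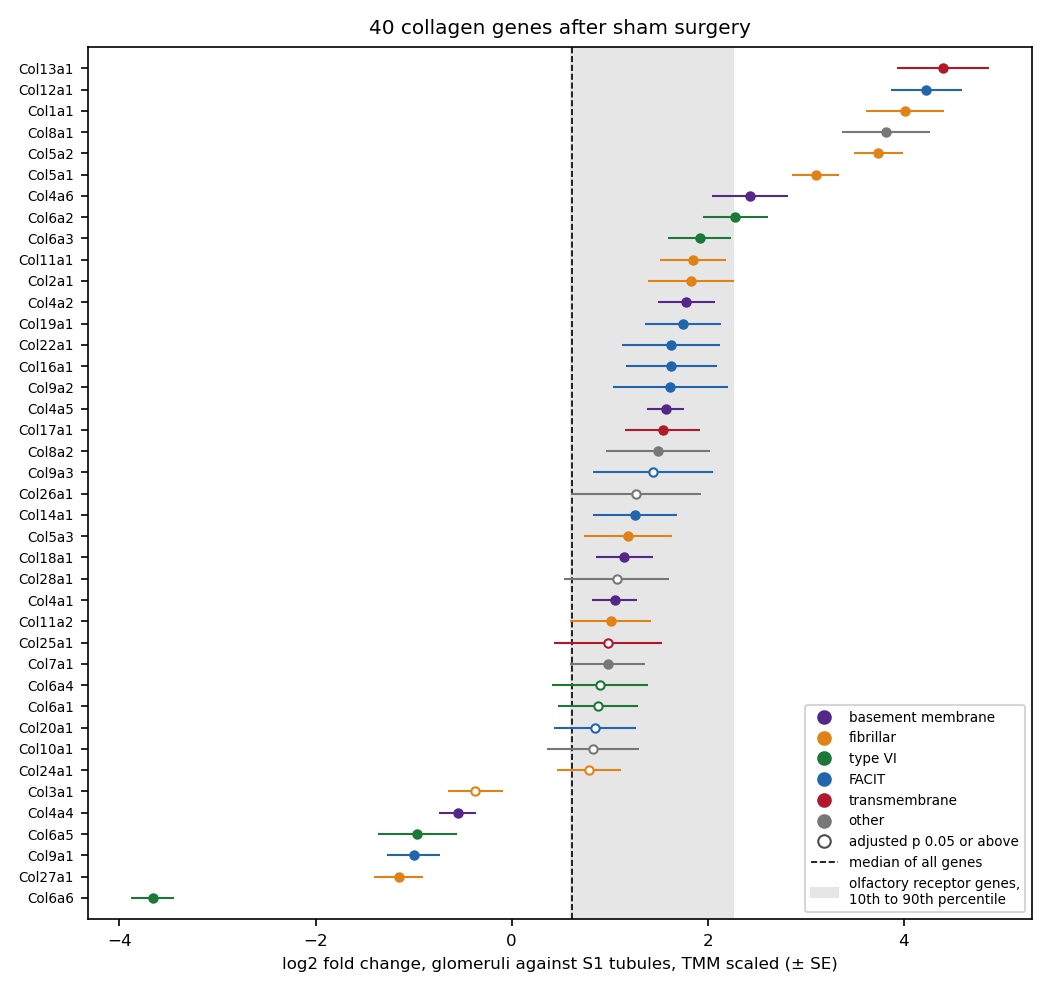
Log2 difference between sham glomeruli (n = 11) and sham S1 tubules (n = 11) of the 40 tested collagen genes, positive where glomeruli are higher, with bars of 1 SE. The dashed line is the median of all genes (0.62), the grey band runs from the 10th to the 90th percentile of olfactory receptor genes (0.61 to 2.26), and open points were not called. Col13a1, Col12a1 and Col1a1 lie far above the band and Col6a6 far below it.

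The chains that stood furthest above the olfactory receptor genes were of several classes. Above their ninetieth percentile of 2.26 lay Col13a1 (4.40 ± 0.47, SE, adjusted p = 2.16e-09), Col12a1 (4.23 ± 0.36, 1.48e-11), Col1a1 (4.01 ± 0.40, 4.2e-10) and Col8a1 (3.82 ± 0.45, 1.43e-08). Col5a2 (3.74 ± 0.25), Col5a1 (3.10 ± 0.24), the basement membrane chain Col4a6 (2.43 ± 0.39) and Col6a2 (2.28 ± 0.33) completed the group. The first 7 also lay above that percentile when libraries were scaled by their gene totals or by DESeq2's size factors. Col13a1, Col8a1 and Col4a6 had S1 means of 0.252, 0.125 and 0.114 RPKM, under the S1 olfactory receptor level of 0.277. Their differences therefore rest on few counts there.

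The 5 chains that were lower in glomeruli were Col6a6 (-3.66 ± 0.22, adjusted p = 7.3e-15), Col27a1 (-1.15 ± 0.25), Col9a1 (-1.0 ± 0.27), Col6a5 (-0.96 ± 0.40) and Col4a4 (-0.55 ± 0.19, adjusted p = 0.0181). Col6a6 alone among them was lower under every scaling tried. On gene totals alone the other 4 turned positive (Col27a1 0.51, Col9a1 0.70, Col6a5 0.74 and Col4a4 1.16), and there the median of all genes moved from 0.62 to 2.30 and the split of the collagen genes from 25 and 5 to 36 higher and 1 lower. Under all 3 scalings these 5 and Col3a1 (-0.37 ± 0.28, not called) lay below the tenth percentile of the olfactory receptor genes. The call of Col6a5 (adjusted p = 0.0492) depended on the processing: it was called in 0 of 6 other settings (adjusted p 0.0521 to 0.167) and in 3 of 22 fits with a library left out. The direction of Col4a4 between segments thus depends on the scaling, whereas its RPKM was higher in glomeruli.

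By class, 7 of 10 tested fibrillar chains were higher and 1 was lower, with a median of 1.51. Of 6 tested basement membrane chains 5 were higher and 1 was lower, with a median of 1.36: Col4a5 (1.57 ± 0.19), Col4a2 (1.78 ± 0.29), Col18a1 (1.15 ± 0.29) and Col4a1 (1.05 ± 0.23) besides Col4a6. The other fibrillar chains called higher were Col11a1 (1.85), Col2a1 (1.83), Col5a3 (1.19) and Col11a2 (1.01), which lie inside the range of the olfactory receptor genes. Among type VI chains Col6a2 and Col6a3 (1.92 ± 0.32) were higher and Col6a5 and Col6a6 lower of 6. Among FACIT chains 6 of 9 were higher, Col12a1 and, between 1.26 and 1.75, Col19a1, Col16a1, Col22a1, Col9a2 and Col14a1. Col17a1 (1.54), Col8a2 (1.49) and Col7a1 (0.98) were the other chains called higher. Apart from the 8 chains above the ninetieth percentile, all chains called higher, of every class, lay inside the olfactory receptor range of 0.61 to 2.26. With the pair of libraries that went against their labels put back, 19 collagen genes were called higher and 3 lower.

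Genes that process or bind collagen were read in the same comparison, from lists chosen with earlier results of these data known. Of 17 tested genes for chain modification, folding and export 8 were higher and 4 lower in glomeruli (median 1.02). Those with the smallest p were Plod2, a lysyl hydroxylase (5.21 ± 0.32), Crtap, a partner of prolyl 3-hydroxylase (-3.10 ± 0.24), and P3h3, of the prolyl 3-hydroxylase family (2.89 ± 0.29). Of 14 genes for propeptide cleavage and crosslinking 10 were higher and 1 lower (median 1.87). They were led by Pxdn, the peroxidase that crosslinks type IV collagen (4.84 ± 0.25), Pcolce, an enhancer of propeptide cleavage (4.73 ± 0.26), and the lysyl oxidase relative Loxl1 (5.14 ± 0.39). Of 10 degradation genes 9 were higher and 1 lower (median 3.16), with the gelatinase Mmp9 (8.81 ± 0.39) and the protease inhibitors Timp2 (5.02 ± 0.32) and Timp1 (4.71 ± 0.39) first. The lower genes of these last lists were Tgm2, a transglutaminase (-3.21), and Timp3 (-1.54), both named after their values were seen.

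Of 10 collagen receptors 5 were higher and 2 lower (median 1.15). First were the beta1 integrin Itgb1 (2.5 ± 0.19), the endocytic receptor Mrc2 (5.29 ± 0.40) and the collagen-activated kinase Ddr2 (1.5 ± 0.21). The 2 lower receptors, named after their values were seen, were Itga1 (-1.21), the alpha1 integrin, and Ddr1 (-1.17), the kinase related to Ddr2. Of 10 collagen binding matrix proteins 8 were higher and 0 lower (median 2.14), led by Sparc (5.49 ± 0.30), Bgn (biglycan, 5.67 ± 0.42) and Fn1 (fibronectin, 2.93 ± 0.23). Of 11 genes around TGF beta, the growth factor best known for inducing matrix genes, 8 were higher and 2 lower (median 1.78), first its receptor Tgfbr2 (2.81 ± 0.18), Tgfb1 itself (4.16 ± 0.30) and Ctgf (4.39 ± 0.35). The 2 lower ones were the receptor Tgfbr1 (-1.22) and the signal transducer Smad3 (-0.44). On gene totals Crtap and Tgm2 alone stayed below 0 among the genes of these 6 lists, so the sign of the other lower values depends on the scaling. Each count stands beside 28.1% of all genes called higher and 22.2% called lower.

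In whole kidney, 4 of 38 tested collagen genes rose after nephrectomy when the 3 times were averaged: Col4a1, Col18a1, Col5a1 and Col7a1. The basement membrane chains gave 2 of 7 and the fibrillar chains 1 of 11, and Col7a1, the anchoring fibril chain of stratified epithelia, belongs to the other chains. Among all 15678 genes tested 2.86% were called, 1.69% higher and 1.17% lower, so the collagen share is 4 of 38 beside 1.69%. At an unadjusted p under 0.05 there were 18 of 38 collagen genes, beside 17.5% of all genes. The median log2 difference was 0.28 for the collagen genes, 31 of 38 of them above 0, and -0.0069 for all genes.

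Values by library are given as counts per 1e+06 counts (CPM), scaled by TMM, in the order of the library numbers 1 to 4. Col4a1 after sham surgery was 288, 601, 396 and 322 at 24 h, and after nephrectomy 486, 500, 903 and 593. At 48 h it was 431, 386, 423 and 318 after sham surgery and 487, 428, 657 and 780 after nephrectomy. At 72 h it was 516, 489, 570 and 539 after sham surgery and 688, 574, 690 and 700 after nephrectomy. The groups overlapped at 24 h, where sham library 2 was the second highest of the 8, and at 48 h, where nephrectomy library 2 lay within the sham range, and they did not overlap at 72 h. All 12 nephrectomy libraries lay above the sham mean of their time, and the mean log2 difference was 0.52 ± 0.13 (SE, adjusted p = 0.0315).

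Col18a1 after sham surgery was 69.9, 174, 136 and 127 CPM at 24 h, and after nephrectomy 145, 160, 279 and 202. At 48 h it was 113, 124, 161 and 96.2 after sham surgery and 125, 157, 193 and 235 after nephrectomy, and at 72 h 189, 155, 142 and 175 against 211, 220, 225 and 220. The groups overlapped at 24 and 48 h and were apart at 72 h, where the nephrectomy libraries lay close together. The mean difference was 0.52 ± 0.14 (adjusted p = 0.041), and 12 of 12 nephrectomy libraries were above their sham mean.

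Col5a1 after sham surgery was 32.2, 66.7, 53.2 and 38.7 CPM at 24 h, and after nephrectomy 58.8, 54.5, 113 and 67.2. At 48 h it was 53.2, 41.3, 55.1 and 38.6 after sham surgery and 58.4, 51.4, 84.7 and 93.9 after nephrectomy, and at 72 h 65.1, 51.7, 60.1 and 64.1 against 74.3, 73.4, 80.4 and 84.2. Nephrectomy library 3 at 24 h was the highest of the 24, the groups overlapped at 24 and 48 h and were apart at 72 h. The mean difference was 0.53 ± 0.13 (adjusted p = 0.0304), again with 12 of 12 libraries above their sham mean.

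Col7a1 is low in the kidney. After sham surgery it was 3.43, 7.39, 4.23 and 2.55 CPM at 24 h, and after nephrectomy 5.0, 7.08, 16.6 and 7.46. At 48 h the values were 3.87, 2.99, 5.84 and 3.26 against 4.57, 4.91, 8.72 and 9.35, and at 72 h 4.80, 3.56, 2.59 and 3.85 against 5.80, 5.67, 4.58 and 7.90. The groups overlapped at each time, at 72 h by a single nephrectomy library. Its mean difference of 0.82 ± 0.20 (adjusted p = 0.0296) was the one with the smallest p among the members, and 12 of 12 libraries were above their sham mean.

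**Figure D3:**
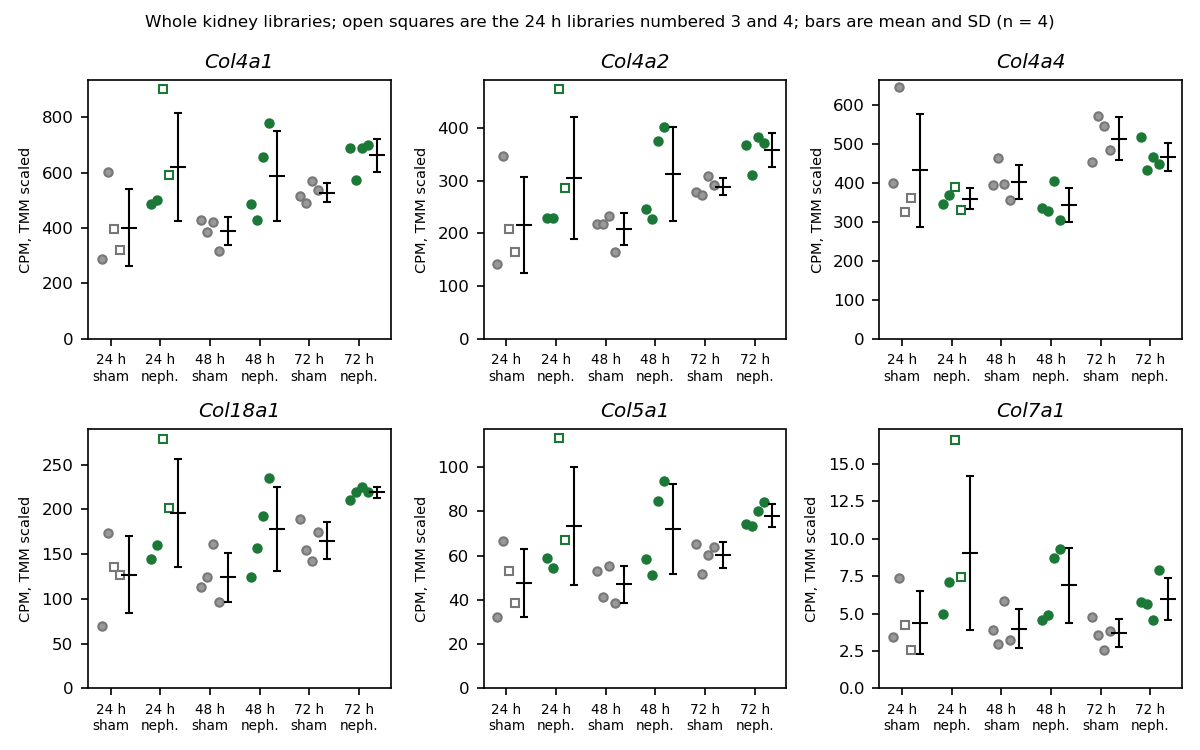
Whole kidney CPM of Col4a1, Col4a2, Col4a4, Col18a1, Col5a1 and Col7a1 in each library, by surgery and time, with bars at the mean and 1 SD (n = 4). Open squares are libraries 3 and 4 at 24 h. At 72 h all nephrectomy libraries of Col4a1, Col4a2, Col18a1 and Col5a1 lie above all sham libraries, whereas Col4a4 overlaps at all times.

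These calls rested on few libraries. The number of collagen genes called ran from 0 to 7 when single libraries were left out: 0 without nephrectomy library 3 or 4 at 48 h, nephrectomy library 4 at 72 h, sham library 4 at 24 h, sham library 2 or 4 at 48 h or sham library 2 at 72 h, and 7 without sham library 2 at 24 h. Libraries 3 and 4 of both surgeries at 24 h stood apart: their TMM factors were 0.452 to 0.685 against 0.835 to 1.57 in the other 20 libraries, and Slc5a2, a transporter of the early proximal tubule, was at 0.379 to 1.86 CPM against 18.4 to 283. Without these 4 libraries Col12a1 was the 1 collagen gene called, and the mean differences were 0.36 for Col4a1 (adjusted p = 0.12), 0.39 for Col5a1 (0.0907), 0.41 for Col18a1 (0.11) and 0.54 for Col7a1 (0.109).

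The partner chain Col4a2 followed Col4a1 closely. At 72 h it was 278, 274, 310 and 292 CPM after sham surgery and 369, 312, 383 and 371 after nephrectomy, with no overlap. At 24 h it was 142, 347, 209 and 165 against 230, 230, 474 and 286, and at 48 h 218, 218, 234 and 165 against 247, 227, 375 and 402, with overlap at both. Its mean difference of 0.46 ± 0.14 missed the threshold (adjusted p = 0.0865), although 12 of 12 nephrectomy libraries were above their sham mean. The log2 ratio of Col4a1 to Col4a2 per length stayed between 0.38 and 0.71 in all 24 whole kidney libraries, 0.48 ± 0.069 after sham surgery and 0.53 ± 0.094 after nephrectomy. In the segments, where reads came from amplified RNA, it was wider, 1.15 ± 0.39 in sham glomeruli and 1.83 ± 0.41 in sham S1 tubules.

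The groups of Col4a4 were not apart in whole kidney at any time. At 24 h it was 398, 645, 324 and 360 CPM after sham surgery and 346, 368, 390 and 331 after nephrectomy, and at 48 h 394, 462, 397 and 355 against 336, 328, 404 and 305. At 72 h it was 453, 570, 545 and 483 against 516, 432, 465 and 448. The groups overlapped each time, 2 of 12 nephrectomy libraries were above their sham mean, and the mean difference was -0.21 ± 0.10 (adjusted p = 0.257). Col4a5 (0.12 ± 0.081, adjusted p = 0.456) and Col4a6 (0.078 ± 0.16, 0.848) did not pass either, nor did the alpha3(IV)-like entry (0.24 ± 0.14, 0.39). The difference between Col4a1 and Col4a4 in their response was not tested.

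The remaining basement membrane gene, Col15a1, had a mean difference of 0.92 ± 0.28 (adjusted p = 0.0749) at a low level, with 11 of 12 nephrectomy libraries above their sham mean. Summed over the class, basement membrane chains came to 1400 ± 298 CPM after sham surgery (1040 to 1930, n = 12) and 1690 ± 298 after nephrectomy (1290 to 2170, n = 12). Without Col4a4 the sums were 956 ± 212 and 1300 ± 265. At 72 h the sum without Col4a4 was 1140 ± 47.6 after sham surgery and 1410 ± 99.3 after nephrectomy (n = 4 each), and the ranges of 1080 to 1180 and 1260 to 1480 did not overlap. With Col4a4 the ranges at 72 h overlapped, at 1570 to 1730 and 1700 to 1950. Without it they were also apart at 48 h (691 to 945 and 964 to 1560) and overlapped at 24 h (643 to 1290 and 987 to 1780). Of all genes taken singly, 3.43% lay wholly above the sham libraries at 48 h and 5.33% at 72 h.

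Of the fibrillar chains besides Col5a1, none passed the test over all times. Col1a1 at 24 h was 64.5, 187, 204 and 132 CPM after sham surgery and 164, 168, 301 and 176 after nephrectomy, and at 48 h 185, 109, 139 and 139 against 212, 145, 235 and 476. At 72 h it was 231, 138, 154 and 179 against 242, 235, 218 and 186. The groups overlapped each time, and nephrectomy library 4 at 48 h was the highest of the 24. All 12 nephrectomy libraries were above their sham mean, and the mean difference was 0.56 ± 0.19 (adjusted p = 0.108).

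Col3a1 at 24 h was 192, 333, 306 and 242 CPM after sham surgery and 258, 293, 338 and 315 after nephrectomy. At 48 h it was 331, 260, 298 and 301 against 371, 318, 428 and 573, and at 72 h 308, 278, 330 and 384 against 405, 361, 366 and 334. The groups overlapped at each time, and 11 of 12 nephrectomy libraries were above their sham mean. Its mean difference was 0.28 ± 0.10 (adjusted p = 0.143). Those of Col1a2 and Col5a3, both at low levels, were 0.76 ± 0.27 (0.14) and 0.77 ± 0.28 (0.146). The summed fibrillar CPM was 587 ± 108 after sham surgery (358 to 716, n = 12) and 767 ± 191 after nephrectomy (568 to 1280, n = 12).

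Set side by side, the median log2 difference over all times was 0.28 for the fibrillar chains (10 of 11 above 0) and 0.46 for the basement membrane chains (6 of 7 above 0). For the 5 type IV chains alone it was 0.12. The ratio of summed fibrillar to summed basement membrane FPKM was 0.413 ± 0.0727 after sham surgery and 0.459 ± 0.0933 after nephrectomy, a difference smaller than the spread between libraries. Without Col4a4 it was 0.712 ± 0.106 and 0.673 ± 0.118, again closer than that spread but with the lower mean after nephrectomy. The other classes had medians of 0.29 (type VI, 5 tested), 0.25 (FACIT, 8), 0.11 (transmembrane, 2) and 0.37 (other, 5). In these classes Col12a1 differed by 0.30 ± 0.11 (adjusted p = 0.154, 12 of 12 libraries above their sham mean), Col16a1 by 0.45 ± 0.17 (0.158), Col8a1 by 0.68 ± 0.25 (0.153), Col6a1 by 0.28 ± 0.11 (0.195), Col6a2 by 0.29 ± 0.12 (0.195) and Col6a3 by 0.30 ± 0.13 (0.22). The lowest mean difference was that of Col2a1 (-0.36, adjusted p = 0.553). Both entries of Col23a1, Col6a4, Col9a3, Col10a1 and Col25a1 had too few counts in whole kidney for the test.

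**Figure D4:**
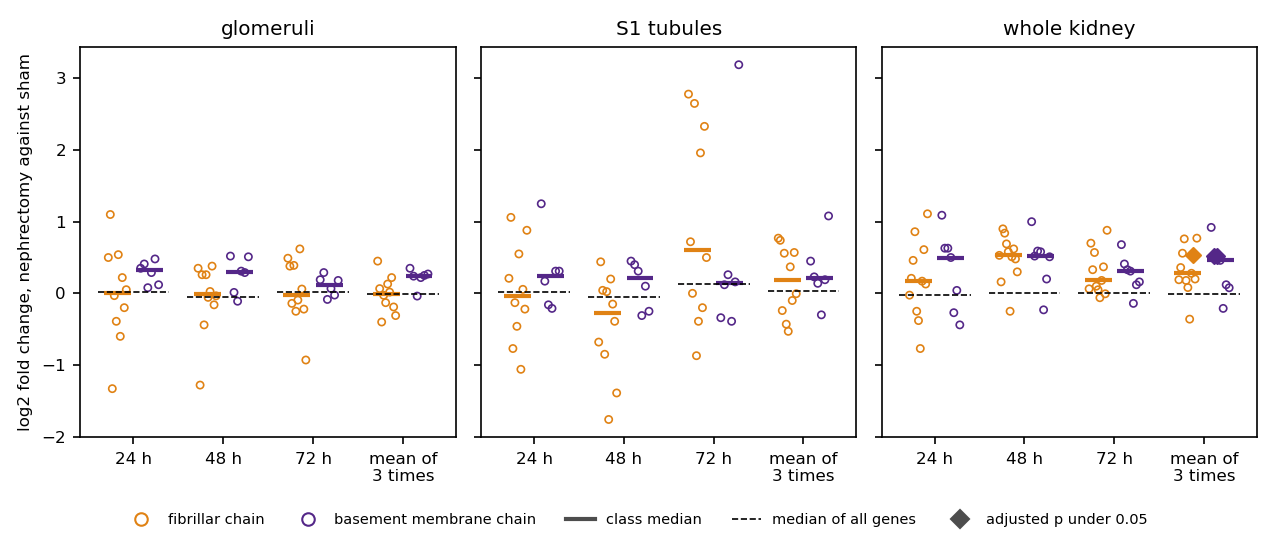
Log2 difference of nephrectomy from sham for each tested fibrillar and basement membrane chain, by tissue and by time or mean of times. Horizontal bars are class medians, dashed lines the median of all genes, and diamonds mark an adjusted p under 0.05. In whole kidney the medians of the mean over times are 0.28 and 0.46, and called chains appear only in that comparison.

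At single times in whole kidney edgeR and DESeq2 called 0 collagen genes, where DESeq2 called 1.96%, 1.06% and 0.0446% of all genes at 24, 48 and 72 h. At an unadjusted p under 0.05 edgeR had 9 of 38 at 24 h, 17 at 48 h and 1 at 72 h, beside 12.9%, 10.3% and 5.20% of all genes. At the adjusted threshold the background was 0.236% of genes at 24 h (0.0893% higher and 0.147% lower), 0% at 48 h and 0.00638% at 72 h. The basement membrane median was 0.50, 0.52 and 0.31 and the fibrillar median 0.17, 0.53 and 0.18 at 24, 48 and 72 h. The members with the smallest p were Col4a1 at 24 h (0.63 ± 0.23, adjusted p = 0.236), Col8a2 at 48 h (0.79 ± 0.26, 0.271) and Col8a1 at 72 h (0.94 ± 0.43, 0.905).

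Groups that did not overlap give another view of single times. At 24 h no tested collagen gene had all nephrectomy libraries above all sham libraries, beside 1.69% of all genes. At 48 h there were 5 (Col5a2, Col27a1, Col20a1, Col8a2 and Col6a6) beside 3.43%, and at 72 h 7 (Col18a1, Col5a1, Col4a1, Col5a3, Col4a2, Col16a1 and Col8a1) beside 5.33%. None lay wholly below the sham libraries at 48 or 72 h, where 3.81% and 5.43% of all genes did. Col8a2 at 48 h was 9.59, 14.2, 10.1 and 10.5 CPM after sham surgery and 16.0, 17.4, 20.7 and 22.8 after nephrectomy. Col8a1 at 72 h was 1.53, 0.962, 1.54 and 1.49 against 3.12, 2.65, 2.26 and 2.59.

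No collagen gene differed in its response between the 3 times at the adjusted threshold, beside 0.0191% of all genes. The smallest p was that of Col17a1 (adjusted p = 0.72). Without libraries 3 and 4 at 24 h, 2 of 41 collagen genes were called at 24 h, Col8a2 and Col4a6, both lower after nephrectomy, beside 1002 higher and 1643 lower of 16122 genes (16.4%). In the same fit 4 of 41 differed between times (Col17a1, Col27a1, Col4a6 and Col8a2), beside 11.4% of all genes. Both collagen shares were under the background.

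Among the collagen pathway lists, propeptide cleavage and crosslinking had the only calls in whole kidney over all times. Of 14 tested, 2 rose, beside 1.69% of all genes: Loxl2, a lysyl oxidase relative that acts on type IV collagen (0.41 ± 0.10, adjusted p = 0.0331), and Bmp1, the protease that cuts the C-terminal propeptide of fibrillar procollagens (0.25 ± 0.067, 0.0435). The list's median was 0.23 with 11 of 14 above 0, and on gene totals 0 of the 14 were called. No gene was called among 16 for modification, folding and export (median 0.068), 8 for degradation (0.041), 8 receptors (0.061), 10 binding matrix proteins (0.14) or 12 around TGF beta (0.016).

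Markers of other cells were read in whole kidney over all times, beside 1.69% of all genes called higher and 1.17% called lower. The 8 proximal tubule markers all had differences under 0 (median -0.62), Slc13a1 (-1.57 ± 0.24) and Slc22a8 (-1.0 ± 0.22) being called, and their summed CPM was 4270 to 7650 after sham surgery (median 5910) and 4050 to 5630 after nephrectomy (median 4670). Of 7 fibroblast markers 0 were called (median -0.078), and their sum was 170 to 324 CPM (median 235) and 187 to 271 (median 230). Of 8 mesangial and smooth muscle markers Tagln, a smooth muscle protein, rose (0.67 ± 0.12), and the sum was 158 to 273 CPM (median 224) and 192 to 290 (median 251). No marker of these 3 lists was at 0. Of 8 immune markers 0 were called (median -0.07), and their sum was 307 to 440 CPM (median 341) and 202 to 392 (median 271). At 24 h the immune sums did not overlap, at 314 to 440 CPM after sham surgery and 202 to 276 after nephrectomy. Of all genes taken singly, 1.62% lay wholly below the sham libraries at that time. Of 6 loop of Henle and distal tubule markers Pvalb was at 0, 0 of the 5 tested were called (median 0.11), and the sum was 2790 to 4610 CPM (median 3410) and 3300 to 4530 (median 4050). The part of such shifts in the collagen differences was not tested. The podocyte, endothelial, parietal epithelium and collecting duct marker lists are not described here for whole kidney.

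In glomeruli, no collagen gene was called after nephrectomy at any time or over all times, by edgeR or DESeq2. At an unadjusted p under 0.05 edgeR had 0 of 40 at 24 h, 0 at 48 h, 2 at 72 h and 2 over all times, beside 0.919%, 1.36%, 2.90% and 2.11% of all genes. At the adjusted threshold edgeR called no gene of any kind in these comparisons (0%), and DESeq2 called 2 of 22405 genes at 24 h, 2 at 48 h, 1 at 72 h and 3 over all times. The common coefficient of biological variation was 0.625 in glomeruli and 0.713 in S1 tubules, against 0.248 in whole kidney, so the dissected libraries of a group differed more from each other than whole kidney libraries did. In simulated data of the segments the same test recovered 0 to 2% of 2-fold changes at single times.

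Col4a1 in glomeruli at 24 h was 683, 683 and 1480 CPM in sham libraries 1, 3 and 4 and 1390, 899, 1060 and 1680 after nephrectomy. At 48 h it was 937, 919, 796 and 1370 against 823, 658, 1100 and 1490, and at 72 h 588, 530, 1340 and 1570 against 1250, 1560, 544 and 1570. The groups overlapped each time. Col4a4 was 1410, 1590 and 1400 CPM at 24 h after sham surgery and 1980, 1510, 1590 and 2120 after nephrectomy, at 48 h 1900, 2400, 1340 and 2590 against 2340, 2950, 2450 and 2470, and at 72 h 1860, 1500, 1370 and 1940 against 1590, 2250, 993 and 2150. The Col4a4 groups overlapped too, with 10 of 12 nephrectomy libraries above their sham mean and a mean difference of 0.22 ± 0.16.

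The medians of the 6 tested basement membrane chains in glomeruli were 0.32, 0.30 and 0.12 at 24, 48 and 72 h, and those of the 10 tested fibrillar chains 0.0095, -0.0048 and -0.017, beside 0.019, -0.046 and 0.021 for all genes. Over all times they were 0.24 and -0.0051. With single libraries left out the basement membrane median ran from -0.035 to 0.45 at 24 h, from 0.12 to 0.41 at 48 h and from -0.20 to 0.22 at 72 h, turning below 0 without sham library 1 at 24 h and without nephrectomy library 2 at 72 h. The ratio of summed fibrillar to basement membrane RPKM was 0.113 ± 0.0421 after sham surgery (n = 11) and 0.0916 ± 0.0464 after nephrectomy (n = 12), which overlap within their SD. The response differed between times in none of the 40, beside 0.00446% of all genes. Col18a1, for example, ran from 20.2 to 156 CPM among 4 sham libraries at 48 h.

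Col1a1 was the member with the smallest p in glomeruli at 24 h, and its groups did not overlap. It was 240, 429 and 215 CPM after sham surgery and 41.3, 169, 46.7 and 213 after nephrectomy, with a difference of -1.33 ± 0.75 (adjusted p = 1). Nephrectomy library 4 lay just under the lowest sham library. Of all genes 1.37% lay wholly below the sham libraries at that time. At 48 h the smallest p was that of Col9a3, a cartilage FACIT chain (-1.47 ± 0.83), and at 72 h that of Col9a1 (1.73 ± 0.83).

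The Col9a1 value at 72 h came from 1 library. It was 17.5, 15.9, 13.2 and 6.05 CPM after sham surgery and 7.19, 1.69, 164 and 4.92 after nephrectomy, so library 3 was high, library 1 lay within the sham range and libraries 2 and 4 lay under it. That library had a mean olfactory receptor level of 9.36 RPKM, against 0.173 to 2.29 in the other glomerulus libraries, and the lowest Col4a2 of that tissue at 72 h (19.4 CPM, against 152 to 811 in the other 7). Whether its high background moved other chains was not tested.

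**Figure D5:**
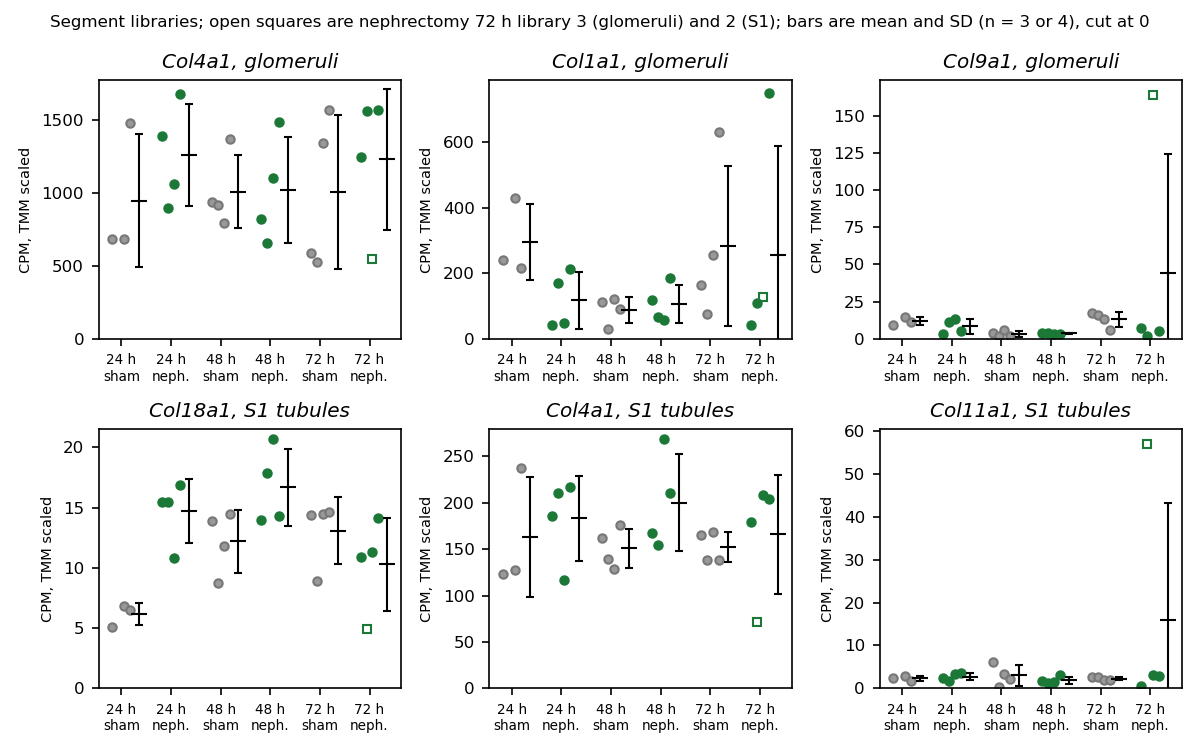
CPM by library of Col4a1, Col1a1 and Col9a1 in glomeruli and of Col18a1, Col4a1 and Col11a1 in S1 tubules, by surgery and time, with mean and 1 SD (n = 3 or 4, bars cut at 0). Open squares are nephrectomy library 3 at 72 h in glomeruli and nephrectomy library 2 at 72 h in S1 tubules, which stand apart for Col9a1 (164) and Col11a1 (56.9).

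In S1 tubules edgeR also called no collagen gene after nephrectomy, and no gene of any kind in these comparisons (0%). At an unadjusted p under 0.05 there were 1 of 40 collagen genes at 24 h, 0 at 48 h, 13 at 72 h and 2 over all times, beside 0.729%, 1.96%, 13.2% and 2.54% of all genes. DESeq2 called Col18a1 higher at 24 h, beside 0.0163% of all genes, and Col11a1, Col14a1, Col19a1, Col24a1 and Col4a6 higher at 72 h, which is 5 of 40 beside 4.05% of all genes (719 higher and 25 lower). Nephrectomy library 2 at 72 h had a mean olfactory receptor level of 4.03 RPKM, against at most 0.334 in the other S1 libraries. Its part in these 5 calls was not tested. The basement membrane medians were 0.24, 0.21 and 0.14 at 24, 48 and 72 h and the fibrillar medians -0.037, -0.27 and 0.61, beside 0.021, -0.05 and 0.13 for all genes. With single libraries left out the basement membrane median turned below 0 at 24 h (-0.016 without nephrectomy library 4) and at 72 h (-0.069 without nephrectomy library 1, and also under 0 without library 3), and the fibrillar median at 72 h turned below 0 without nephrectomy library 2 (-0.41).

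Col18a1 at 24 h in S1 tubules was 5.13, 6.85 and 6.53 CPM in sham libraries 1, 3 and 4 and 15.5, 15.5, 10.8 and 16.9 after nephrectomy. The groups did not overlap, as in 1.81% of all genes, and the difference was 1.25 ± 0.32 (edgeR adjusted p = 1). At 48 h the values were 13.9, 8.78, 11.8 and 14.5 against 14.0, 17.9, 20.7 and 14.3, and at 72 h 14.4, 8.91, 14.5 and 14.6 against 10.9, 4.93, 11.3 and 14.1. The later groups overlapped, and the sham libraries at 24 h were lower than those at 48 and 72 h, while the nephrectomy libraries at 24 h were not. The response of Col18a1 did not differ between times after adjustment (edgeR adjusted p = 0.684), and no other collagen gene's did in S1 tubules, beside 0.0109% of all genes.

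The type IV chains Col4a1 and Col4a4 in S1 tubules showed no such separation. Col4a1 at 24 h was 123, 127 and 237 CPM after sham surgery and 186, 211, 117 and 217 after nephrectomy, at 48 h 162, 139, 129 and 176 against 167, 154, 269 and 210, and at 72 h 165, 138, 168 and 138 against 179, 71.0, 208 and 204. Col4a4 ran from 561 to 1270 CPM in the 11 sham libraries and from 318 to 1050 in the 12 nephrectomy libraries. All groups of both chains overlapped. Below all sham libraries lay Col6a1 at 24 h (-1.86 ± 1.01, background 1.58%) and Col8a2 at 48 h (-2.39 ± 1.38, background 2.81%), both at no more than 3.18 CPM in any library of that time.

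The fibrillar values at 72 h in S1 tubules rested on nephrectomy library 2. Col11a1, a minor fibrillar chain, was 2.68, 2.57, 1.86 and 1.91 CPM after sham surgery and 0.558, 56.9, 2.99 and 2.98 after nephrectomy, with a difference of 2.78 ± 0.89 (adjusted p = 0.279). Library 2 was high and library 1 was the lowest. Without library 2 the fibrillar median at 72 h was -0.41 in place of 0.61. This library had a mean olfactory receptor level of 4.03 RPKM, against 0.0213 to 0.334 in the other S1 libraries, and the lowest Col4a1, Col4a4 and Col18a1 of that time.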

How the data were processed

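Counts of reads per gene were deposited as whole numbers, and the submitters' processing notes name STAR 2.4.0.1, HTSeq, Trimmomatic 0.32 and SAMtools as the tools the authors used. Genome build: not given in the sources used here, nor is the use of strand. RPKM of the segments and FPKM of whole kidney were deposited by the authors, per the file headers, and were used for levels only. The 5 HTSeq summary entries that name no gene were left out.

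Each tissue was fitted with edgeR 4.0.16 in R 4.3.3 (TMM, filterByExpr with a minimum count of 10, quasi-likelihood F test), with a mean for each group of surgery and time. Sham glomeruli and S1 tubules were fitted together. Nephrectomy was compared with sham at each time and over the mean of the 3 times, and p-values were Benjamini-Hochberg adjusted over all genes tested, with 0.05 as threshold. SE is the absolute log2 difference over the root of F. The test was checked on simulated data with known changes of 2-fold and 4-fold. At single times it recovered 0 to 2% of the 2-fold and 18 to 31% of the 4-fold changes in the segments. In whole kidney it recovered 64 to 69% and 84 to 90%. Over all times it recovered 35% and 49% in glomeruli, 29% and 57% in S1 tubules and 87% and 98% in whole kidney. The lack of calls in the segments therefore does not show that no collagen gene changed. Counts come from amplified fragments without molecular identifiers, so errors are those between libraries.

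The collagen genes, the classes, the pathway and marker lists and the rule for named genes were chosen with earlier results of these data known. Named were members past the threshold, the 5 highest of each tissue, the main chains of types I, III, IV, V, VI, XV and XVIII, the member with the smallest p of each comparison and up to 3 called genes of each list. Tried besides were DESeq2 1.42.0, its size factors, limma 3.58.1, no filter, a replicate block, single libraries left out, the 2 libraries that went against their labels put back, whole kidney without libraries 3 and 4 at 24 h, and, chosen after seeing the data, gene totals without scaling factors and the olfactory receptor genes. Promoters came from RefSeq on GRCr8, where 34 of 43 symbols matched.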

Additional observations from a re-analysis of the deposited data

Results flagged for a closer look

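Groups of 4 libraries were searched for a library far from the other 3, in the summed CPM of fibrillar and of basement membrane chains and, in whole kidney, in the 4 genes called. Of 56 searches 8 found one, where chance gives about 1 in 20 for a single search. The searches were not independent, as Col4a1 and Col18a1 belong to the basement membrane sum and Col5a1 to the fibrillar sum. The count of 8 therefore cannot be set against that rate. In S1 tubules, nephrectomy library 2 at 72 h had 172 CPM of fibrillar chains, against 10.4 to 27.4 in the other 3. Nephrectomy library 4 at 48 h had 770 CPM of basement membrane chains against 951 to 973, and sham library 2 at 72 h had 1480 against 942 to 966. In glomeruli, sham library 2 at 48 h had 269 CPM of fibrillar chains against 337 to 344.

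In whole kidney, sham library 2 at 24 h had 1930 CPM of basement membrane chains against 1040 to 1170, and it is the library whose removal raised the number of collagen genes called to 7. Sham library 4 at 48 h had 1050 against 1290 to 1340. Nephrectomy library 2 at 72 h had 1700 against 1920 to 1950, and its Col4a1 was 574 CPM against 688 to 700.

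The sham library numbered 2 at 24 h that is labelled S1 tubules, left out of the tests, carried collagen levels above the other S1 sham libraries: Col12a1 at 41.8 RPKM against 0.222 to 2.10, Col1a1 at 12.1 against 0.0642 to 2.45 and Col4a1 at 131 against 11.96 to 37.1. The glomerulus library of the same number was below its group for Col1a1 (0.210 RPKM against 4.44 to 98.7) and above it for Col6a6 (2.04 against 0.343 to 1.25).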

How the results depend on the processing

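The count of 4 collagen genes called in whole kidney over all times became 7 in DESeq2, 7 on 48 and 72 h alone, 0 in limma, 0 on gene totals and 1 without libraries 3 and 4 at 24 h. It ran from 0 to 7 with single libraries left out, and the cause was not tested. Without libraries 3 and 4, 2 were called at 24 h and 4 differed between times. With single libraries left out 0 to 1 were called at 24 h. With a replicate block 4 were called, Col18a1, Col1a2, Col5a1 and Col7a1, Col1a2 being gained and Col4a1 lost (adjusted p = 0.0536). Same-numbered nephrectomy and sham libraries of a tissue showed no steady pairing. Of these pairs, 2 of 11, 5 of 11 and 6 of 12 correlated above 0.1 in glomeruli, S1 tubules and whole kidney. In each tissue 3 correlated best with their own number. Between sham glomeruli and S1 tubules 8 of 11 pairs correlated above 0.1, and 8 were best with their own number. These libraries may therefore be paired, which the main test does not use. There the block gave 30 higher and 4 lower against 25 and 5, Col6a5 being lost. In S1 tubules DESeq2 called 1 at 24 h and 5 at 72 h, the latter with nephrectomy library 2 in the fit. Gene totals moved the whole kidney median of all genes to -0.32 at 24 h and 0.27 at 48 h, and with it the fibrillar and basement membrane medians to -0.29 and -0.015 at 24 h and 0.83 and 0.83 at 48 h. At 24 h the basement membrane median was 0.11 in limma, -0.09 without libraries 3 and 4 and 0.041 for type IV alone, and it ran from 0.20 to 0.82 with single libraries left out. Over all times it was 0.14 in limma and 0.12 for type IV alone. With the libraries that went against their labels, the S1 medians at 24 h were -0.69 (fibrillar) and -0.13 (basement membrane). Fibrillar medians at 72 h ran from -0.41 to 1.14 in S1 tubules and from -0.14 to 0.44 in glomeruli, the last without sham library 4. Between glomeruli and S1 tubules, gene totals gave medians of 3.15 (fibrillar) and 3.06 (basement membrane) and turned Col27a1 (0.51), Col6a5 (0.74), Col9a1 (0.70) and Col4a4 (1.16). In the segments, chains at the level of the olfactory receptor genes cannot be told from background in these libraries.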
